A study of Mus musculus with 24 samples.

Results

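The genes described here are 10 genes of the circadian clock, Per1, Per2, Per3, Cry1, Cry2, Arntl, Clock, Nr1d1, Nr1d2 and Dbp. They were chosen by symbol from the clock loop that works through E-box DNA elements, with earlier results of these data known. All 10 are among the 23235 genes of the deposited table. RNA-seq was made from the mouse line T11, claudin-low mammary tumour cells that, per the labels, carry a luciferase gene in every sample. Cells received PBS, Omomyc, FPP-1746 or the fusion FPP-1746-Omomyc for 3 h or 6 h, with each peptide at 5 µM, so that 24 samples form 8 groups of 3 replicates. Omomyc is a mutated dimerisation domain of MYC that occupies MYC's partner MAX and E-box DNA, FPP-1746 is the cell-penetrating carrier, and the fusion joins both. All groups share the same line and medium, and the labels mention no step that sets the clocks of the cells in phase. In the samples titled 6 h for the fusion, the treatment tag says 3 h. The title and the table's column were followed, so every 6 h value of the fusion rests on them.

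In mammalian cells the proteins CLOCK and BMAL1 (the product of Arntl) pair and bind E-boxes, short elements with the letters CACGTG or close variants, and switch on the Per, Cry, Nr1d and Dbp genes. PER and CRY proteins return to the nucleus and block the pair, while REV-ERB alpha and beta, the products of Nr1d1 and Nr1d2, repress Arntl through elements shared with the ROR receptors. MYC with MAX binds the same CACGTG letters, and Per1 is also known as a gene that stimuli such as serum, cAMP and glucocorticoids induce within a short time.

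The table holds 1 averaged value per group, in FPKM, fragments scaled by transcript length and library size. The spread of the replicates is thus hidden, and values are given without tests or p-values. The 3 columns without the fusion at each time are the only gauge of how far such averages differ. A ratio below is the log2 ratio of FPKM + 1, which understates changes of low genes, and a gene is said to pass when that ratio is at least 2-fold, a log2 ratio of 1 or -1. The background is the 10262 genes whose mean over the columns reached 1 FPKM (kept genes), of which 9 are clock genes, all but Per3. Column sums lay between 445657 and 594951 FPKM, highest in the fusion at 3 h. From the step between low values, the FPKM times bases of 1 fragment was estimated at 18.8 to 31.1, a rough figure. By it the lowest column held about 56 fragments for Per3 and 162 for Dbp, and 256 to 5663 for the others. All 8 mesenchymal markers were kept, and none of 10 epithelial markers was, with Epcam, Cldn3, Krt5 and Krt18 at 0 in every column. Of 6 leukocyte markers Emr1 and Cd3e were at 0 and Ptprc reached at most 0.0256 FPKM. Their summed level was 1.05 to 2.01 FPKM without the fusion, 3.50 FPKM in the fusion at 3 h and 2.81 FPKM at 6 h, nearly all of it from Cd68. Csf1r reached at most 0.0523 and Itgam at most 0.00521 FPKM, so Cd68 was the only kept marker of the list. Cd68 alone does not show that leukocytes were present, and any part of such cells in the clock values was not tested. In such bulk samples a change in the make-up of the cells and a change of RNA per cell cannot be told apart.

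With the fusion, most clock genes stood higher than in PBS, and Per1 and Nr1d1 led at 3 h while Per2, Per1 and Cry1 led at 6 h. At 3 h 5 of the 9 kept genes passed as higher (Per1, Per2, Cry2, Arntl and Nr1d1) and none as lower, against 6.13% higher and 4.42% lower among all kept genes. At 6 h Cry1 and Nr1d2 passed as well, so 7 of 9 were higher and none was lower, against 7.13% and 3.34%. The median log2 ratio of the 9 genes was 1.501 at 3 h and 1.48 at 6 h, where all kept genes had medians of 0.0034 and -0.026. Clock and Dbp passed at neither time. The fusion column lay outside the range of the 3 other columns of its time in most genes of the table, above it in 46.0% and below it in 45.9% of all kept genes at 3 h, and above in 44.0% and below in 47.3% at 6 h. These counts describe averaged columns, and each lacks a replicate check. Since the set was chosen with earlier results of these data known, the shares are a background and no test of it.

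**Figure D1:**
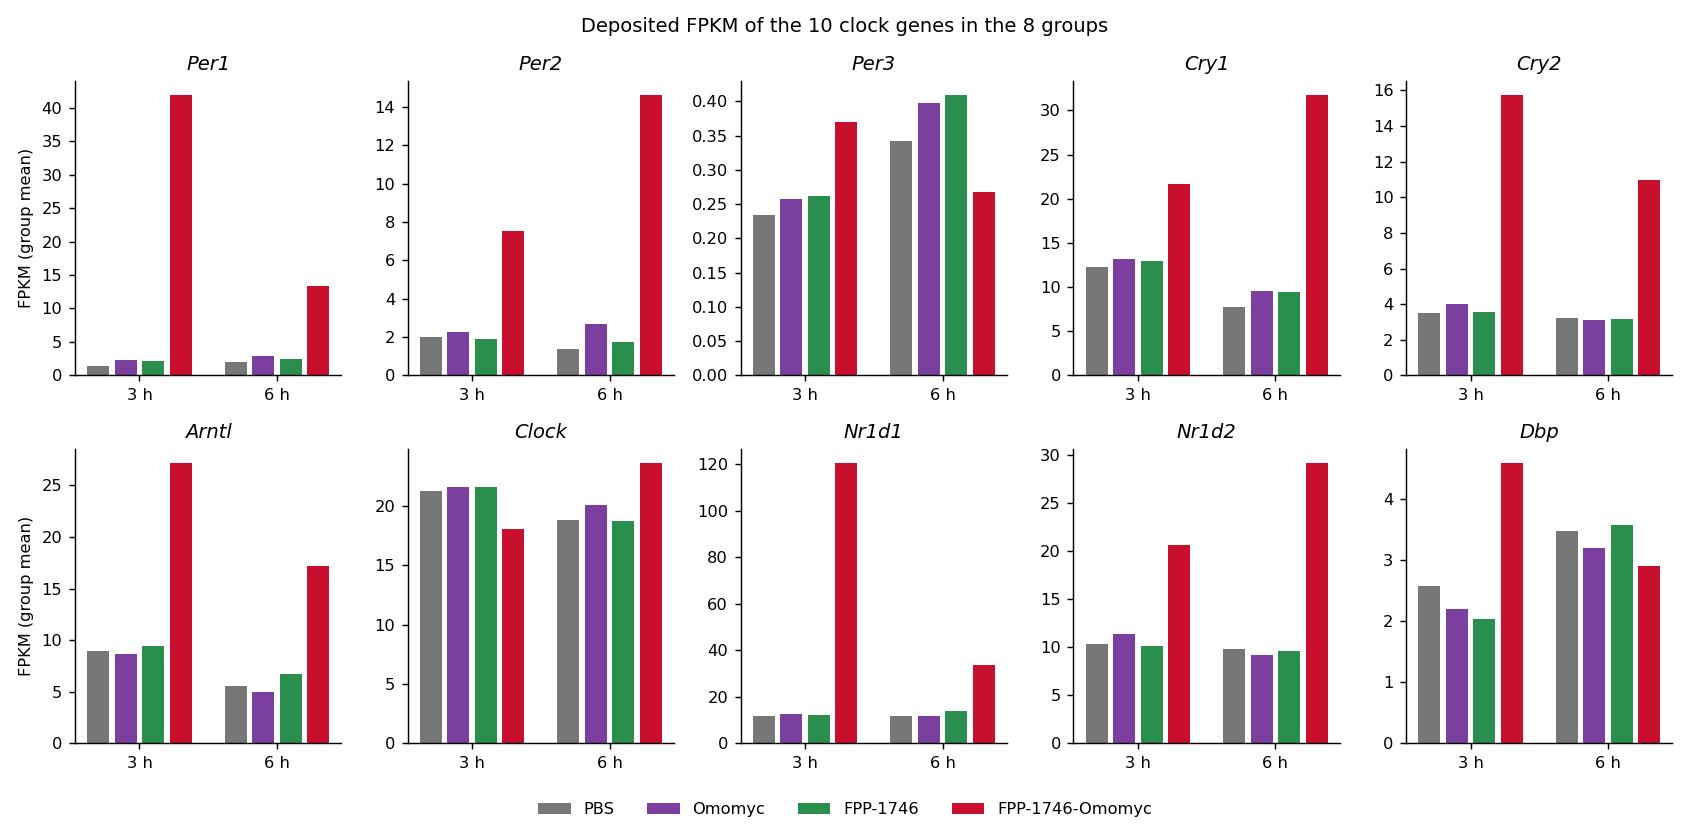
Deposited FPKM (vertical axis, linear, from 0, scale differs by panel) of the 10 clock genes under the 4 treatments at 3 h and 6 h; each bar is 1 averaged column of 3 replicates, so no error bars can be drawn. The red bar of the fusion is the highest of its time in 9 panels at 3 h, Per3 among them, and in 8 at 6 h. Of the 9 kept clock genes it was highest in 8 at each time, against 46.0% and 44.0% of all kept genes. Per1 goes from 1.37 FPKM in PBS to 41.9 FPKM in the fusion at 3 h.

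The DNA just upstream of the members is shown because the set is named for its E-boxes. RefSeq's table of mouse promoters (GRCm38.p6, a later build than that of the expression table) has 13 windows for 9 of the 10 genes, each from 250 bases before to 50 after a start of transcription. Per2 was not matched. The letters CACGTG, which read the same on both strands, occur in windows of Per1 and Cry1 and in 7.15% of all 32851 windows. The variant CACGTT, searched on both strands and so also as AACGTG, occurs in windows of Cry1, Cry2 and Nr1d1 and in 4.68% of all. Together 4 of the 13 windows hold either form, against 11.4% of all windows. The stretches follow 5′ to 3′ on the strand of the gene, up to the start or the first annotated exon, with both forms in capitals: Per1 at chr11:69098699-69098947 on the plus strand, and on the minus strand Cry1 at chr10:85185065-85185304, Cry2 at chr2:92434070-92434319 and Nr1d1 at chr11:98775378-98775627.
Per1: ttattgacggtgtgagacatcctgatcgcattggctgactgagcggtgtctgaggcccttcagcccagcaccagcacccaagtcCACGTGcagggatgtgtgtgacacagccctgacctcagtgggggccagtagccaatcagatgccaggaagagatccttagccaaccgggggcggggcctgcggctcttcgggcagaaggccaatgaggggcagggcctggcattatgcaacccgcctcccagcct
Cry1: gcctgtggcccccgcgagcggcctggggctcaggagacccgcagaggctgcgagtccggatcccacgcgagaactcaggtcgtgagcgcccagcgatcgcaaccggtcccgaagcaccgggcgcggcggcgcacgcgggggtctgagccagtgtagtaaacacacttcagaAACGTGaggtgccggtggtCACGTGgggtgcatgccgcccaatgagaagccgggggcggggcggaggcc
Cry2: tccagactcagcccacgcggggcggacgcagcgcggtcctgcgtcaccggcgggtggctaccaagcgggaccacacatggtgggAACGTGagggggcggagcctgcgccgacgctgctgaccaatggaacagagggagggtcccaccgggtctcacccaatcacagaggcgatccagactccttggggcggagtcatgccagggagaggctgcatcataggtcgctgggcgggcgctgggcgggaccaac
Nr1d1: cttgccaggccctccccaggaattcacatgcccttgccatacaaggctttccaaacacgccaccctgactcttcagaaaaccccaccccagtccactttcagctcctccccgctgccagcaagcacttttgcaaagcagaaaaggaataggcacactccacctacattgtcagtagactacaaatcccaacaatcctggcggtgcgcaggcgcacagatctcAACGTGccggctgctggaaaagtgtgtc

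In Per1 the E-box began 166 bases before the start of the window shown. Another window of Per1, at chr11:69099902-69100201, held neither form. Cry1 holds a pair of elements, AACGTG beginning 79 bases and CACGTG 60 bases before its start, while that of Cry2 lies 166 bases and that of Nr1d1 28 bases upstream. Of the other letters searched on both strands, the half-site AGGTCA of ROR and REV-ERB elements was in windows of Per1, Arntl, Clock and Nr1d2 and in 16.3% of all windows. The CRE, the CREB element TGACGTCA, was in none of the 13 windows and in 1.79% of all. Its half-site TGACG, part of the full letters, was in windows of Per1, Cry1 and Cry2 and in 20.8% of all. The D-box TTATGTAA, the kind of element DBP binds, was in the window of Per3 alone, 205 and 158 bases before its start, and in 0.938% of all. TTACGTAA was in none, and in 0.119% of all. A match of letters is no evidence of a bound site, and clock elements that lie outside these windows were not looked at.

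Of the Period genes, which encode the PER repressors, Per1 had the largest ratio of all members at 3 h and Per2 at 6 h. Per1, on chromosome 11 from 68912458 to 68923459 (mm9, as are all positions of genes below), had 1.37 FPKM in PBS, 2.25 in Omomyc, 2.09 in FPP-1746 and 41.9 in the fusion at 3 h. At 6 h its levels were 1.96, 2.86, 2.49 and 13.4 FPKM in the same order. At both times the fusion lay far above the 3 other columns, which spanned 1.37 to 2.86 FPKM over both times. The log2 ratio of Per1 was 4.18 at 3 h and 2.28 at 6 h, and 28 of the 10262 kept genes had a larger one at 3 h. Within the fusion the 6 h column was lower than the 3 h column by a log2 ratio of -1.58.

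Per2, on chromosome 1 from 93312559 to 93355905, went the other way in time. Its levels at 3 h were 2.02 FPKM in PBS, 2.25 in Omomyc, 1.90 in FPP-1746 and 7.56 in the fusion, and at 6 h 1.39, 2.68, 1.75 and 14.6 FPKM. The fusion was above all others at both times, with log2 ratios of 1.501 and 2.71. With a pseudocount of 5 the ratio of this low gene at 3 h was 0.84 and no longer passed. Omomyc alone at 6 h gave the largest ratio of any clock gene to a part of the fusion, 0.62 for Per2, which did not pass.

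Per3, on chromosome 4 from 150377764 to 150418731, encodes the third PER protein and was barely detected. At 3 h it was at 0.234 FPKM in PBS, 0.258 in Omomyc, 0.262 in FPP-1746 and 0.369 in the fusion, and at 6 h at 0.342, 0.397, 0.409 and 0.267 FPKM. The fusion column was thus the highest at 3 h and the lowest at 6 h. All 8 values were under the minimum of 1 FPKM, and the gene enters no count.

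The cryptochrome genes, which encode the repressors that act with PER, both passed at 6 h, and Cry2 already at 3 h. Cry1, on chromosome 10 from 84594445 to 84647799, had 12.3 FPKM in PBS, 13.2 in Omomyc, 12.9 in FPP-1746 and 21.7 in the fusion at 3 h. At 6 h it was at 7.70, 9.55, 9.46 and 31.7 FPKM. The PBS column was lower at 6 h than at 3 h (log2 ratio -0.61), so part of the step in its ratio from 0.77 to 1.91 comes from the reference. Against the mean of both PBS columns the 3 h ratio was 1.04 and passed.

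Cry2, on chromosome 2 from 92243804 to 92274226, was at 3.52 FPKM in PBS, 4.003 in Omomyc, 3.58 in FPP-1746 and 15.7 in the fusion at 3 h, and at 3.20, 3.10, 3.18 and 10.95 FPKM at 6 h. Its columns without the fusion differed by a factor of at most 1.29 over both times, and the log2 ratios of the fusion were 1.89 and 1.51. With a pseudocount of 5 the 6 h ratio was 0.96 and no longer passed. The table gives Cry2 a locus shared with D930015M05Rik, so reads of that gene may be mixed in.

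Of the activator genes, Arntl passed at both times and Clock at neither. Arntl, on chromosome 7 from 120350979 to 120457640, had 8.95 FPKM in PBS, 8.68 in Omomyc, 9.47 in FPP-1746 and 27.2 in the fusion at 3 h. At 6 h the levels were 5.51, 4.93, 6.75 and 17.2 FPKM. All 4 columns were lower at 6 h than their 3 h counterparts, and the ratio over PBS was nearly the same at both times, 1.501 and 1.48.

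Clock, on chromosome 5 from 76641202 to 76733573, encodes the partner of BMAL1. At 3 h it was at 21.3 FPKM in PBS, 21.6 in Omomyc, 21.6 in FPP-1746 and 18.1 in the fusion, and at 6 h at 18.8, 20.1, 18.8 and 23.6 FPKM. The fusion lay below the other columns at 3 h and above them at 6 h, with log2 ratios of -0.22 and 0.32 that did not pass. The genes of other partners of this kind were near 0: the CLOCK paralog gene Npas2 reached at most 0.0165 FPKM and the BMAL1 paralog gene Arntl2 at most 0.509 FPKM.

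The REV-ERB genes differed in timing. Nr1d1, on chromosome 11 from 98629249 to 98636556, was at 11.7 FPKM in PBS, 12.8 in Omomyc, 12.3 in FPP-1746 and 120.5 in the fusion at 3 h. At 6 h it was at 11.7, 11.9, 14.1 and 33.8 FPKM. No other clock gene reached such a level in any column, and the log2 ratio was 3.26 at 3 h and 1.45 at 6 h. From 3 h to 6 h within the fusion its log2 ratio was -1.81. Nr1d1 and Per1 were the 2 of 9 kept members that passed in that comparison, both as lower. Of all kept genes 4.92% passed as lower and 7.27% as higher, 12.2% in either direction.

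Nr1d2, on chromosome 14 from 19036570 to 19071620, had 10.3 FPKM in PBS, 11.4 in Omomyc, 10.1 in FPP-1746 and 20.6 in the fusion at 3 h, and 9.81, 9.23, 9.64 and 29.2 FPKM at 6 h. The fusion was above the others at both times. Its log2 ratio of 0.93 at 3 h fell short of the rule and that of 1.48 at 6 h passed. Of the genes of ROR activators, which compete with REV-ERB for the same elements, Rora was at 0 in every column and Rorb at most at 0.0297 FPKM. Rora shares its locus with 9530091C08Rik, so the 0 alone does not show that Rora is absent.

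Dbp, the output gene of the set, encodes a D-box activator and is known as a strong E-box target. It lies in a locus of chromosome 7, from 52960617 to 52973372, that the table gives to Sphk2 as well, so its reads may be mixed. At 3 h it stood at 2.57 FPKM in PBS, 2.19 in Omomyc, 2.04 in FPP-1746 and 4.59 in the fusion, and at 6 h at 3.47, 3.19, 3.57 and 2.90 FPKM. The fusion was the highest column at 3 h and the lowest at 6 h. Its log2 ratios of 0.65 and -0.20 did not pass.

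**Figure D2:**
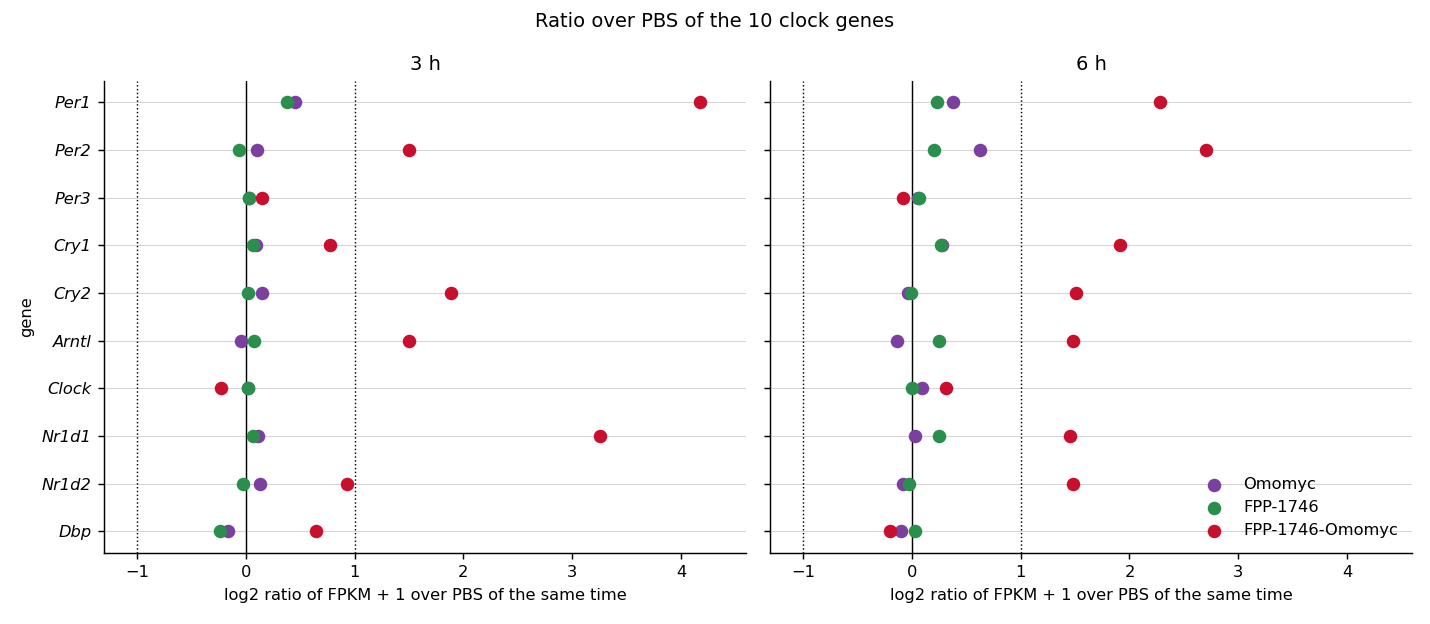
Log2 ratio of FPKM + 1 over PBS of the same time (horizontal axis) for the 10 clock genes at 3 h (left) and 6 h (right); each point is 1 ratio of averaged columns (purple Omomyc, green FPP-1746, red the fusion), and dotted lines mark 2-fold. The points of the parts lie between -0.23 and 0.62, those of the fusion between -0.22 and 4.18.

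Neither part alone moved a clock gene past the rule. For FPP-1746 the ratios of the 9 kept genes lay between -0.23 (Dbp) and 0.38 (Per1) at 3 h and between -0.022 (Nr1d2) and 0.27 (Cry1) at 6 h. For Omomyc they lay between -0.16 (Dbp) and 0.46 (Per1) at 3 h and between -0.13 (Arntl) and 0.62 (Per2) at 6 h. Of all kept genes, 0.614% passed in either direction for FPP-1746 and 0.614% for Omomyc at 3 h, and 0.555% and 0.682% at 6 h, so a count of 0 of 9 is near that background. Per1 was above PBS with both parts at both times, by log2 ratios of 0.23 to 0.46. The 3 treatments of a time share 1 PBS column, so a low PBS value raises all of their ratios together.

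In PBS no clock gene passed between the times, against 0.867% of all kept genes. The PBS values at 6 h were lowest relative to 3 h for Cry1 and Arntl, both with a log2 ratio of -0.61, and highest for Per1 and Dbp, both with 0.32. The order of levels in the cells without peptide was led by Clock. At 3 h in PBS it was followed by Cry1, Nr1d1, Nr1d2, Arntl, Cry2, Dbp, Per2, Per1 and Per3. Over PBS, Omomyc and FPP-1746 at 3 h the ranges of Cry1 (12.3 to 13.2 FPKM) and Nr1d1 (11.7 to 12.8 FPKM) overlapped, as did those of Dbp (2.04 to 2.57), Per2 (1.90 to 2.25) and Per1 (1.37 to 2.25). The other neighbours in this order had ranges that did not overlap. In the fusion at 3 h the order was Nr1d1, Per1, Arntl, Cry1, Nr1d2, Clock, Cry2, Per2, Dbp and Per3, so that Per1 stood second and Clock sixth.

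Against all kept genes, the members were spread from the middle to the upper edge. At 3 h 0.273% of the 10262 genes had a larger ratio than Per1 and 0.487% a larger one than Nr1d1. For Cry2, Per2 and Arntl these shares were 1.97%, 2.91% and 2.92%, and for Nr1d2, Cry1 and Dbp 6.94%, 9.65% and 13.5%. For Clock the share was 66.3%. At 6 h the share was 0.439% for Per2, 0.809% for Per1 and 1.39% for Cry1. Cry2, Arntl, Nr1d2 and Nr1d1 lay close together, with 2.58% to 2.87% of genes above them, while Clock (29.6%) and Dbp (61.1%) were in the bulk of the distribution.

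**Figure D3:**
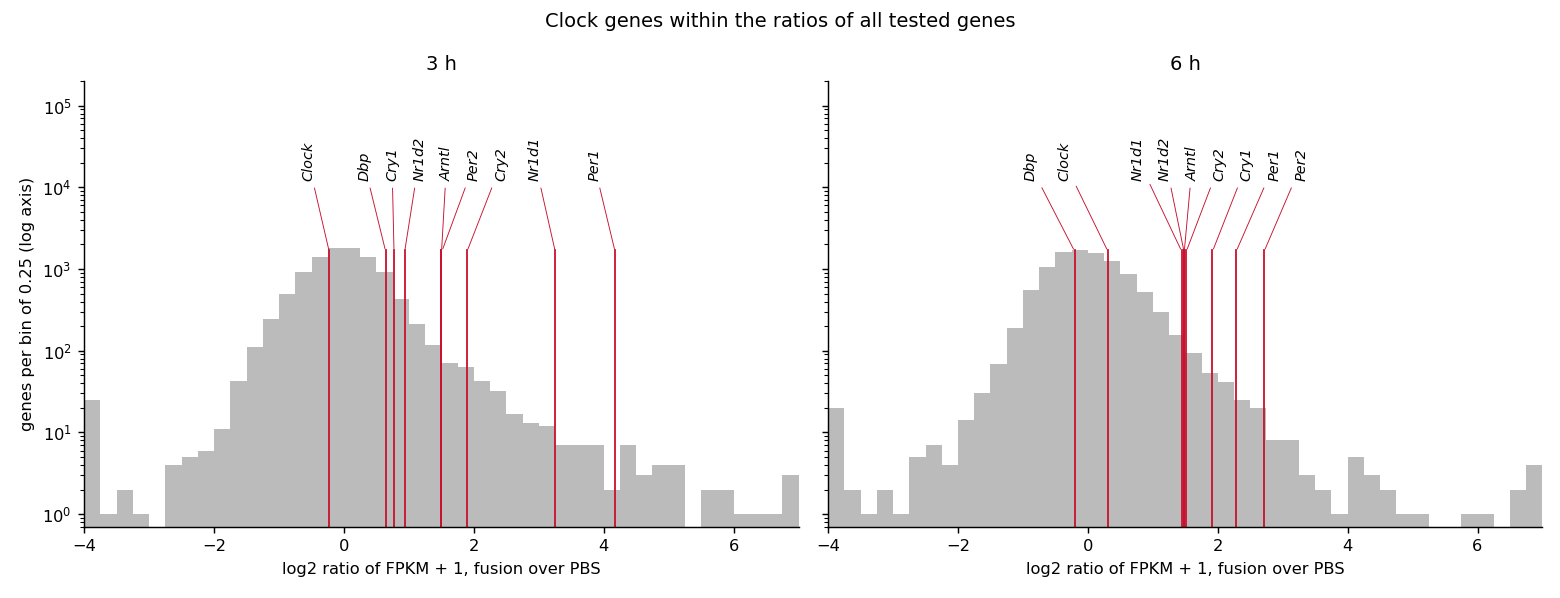
Number of kept genes per bin of 0.25 (vertical axis, log scale) by log2 ratio of FPKM + 1 of the fusion over PBS at 3 h (left) and 6 h (right); red lines mark the 9 kept clock genes, and the outermost bins also hold genes beyond the axis. Per1 (4.18) and Nr1d1 (3.26) lie in the upper tail at 3 h, and Per2 (2.71) is the highest member at 6 h.

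The other genes of the clock machinery were taken by list, and the lists were put together with earlier results of these data known. The count of each list stands against the shares of all kept genes that passed, 6.13% higher and 4.42% lower at 3 h and 7.13% higher and 3.34% lower at 6 h, and with so few genes in a list 1 gene makes up a larger share than these. The E-box repressor genes outside Per and Cry were all higher at 3 h, 3 of 3, and 2 of 3 were higher at 6 h, with medians of 2.17 and 1.97. Bhlhe40, whose product DEC1 competes for E-boxes, was at 23.1 FPKM in PBS and 108 FPKM in the fusion at 3 h, and at 19.1 and 77.9 FPKM at 6 h. Its log2 ratios were 2.17 and 1.97. Ciart, which encodes a repressor of CLOCK and BMAL1 and is listed as Gm129, had 11.6 FPKM in PBS and 60.9 FPKM in the fusion at 3 h, and 9.15 and 75.1 FPKM at 6 h. The DEC2 gene Bhlhe41 had ratios of 1.31 and 0.79, of which the second did not pass. The loci of Bhlhe40 and Ciart are shared with other genes in the table.

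Of the D-box factors beside Dbp, Nfil3, the gene of a D-box repressor, was at 10.9 FPKM in PBS and 100.3 FPKM in the fusion at 3 h, and at 8.75 and 49.3 FPKM at 6 h. Its log2 ratios of 3.09 and 2.37 passed. Tef, a D-box activator gene like Dbp, was at 16.8 and 28.7 FPKM at 3 h and at 15.7 and 29.0 FPKM at 6 h, and its ratios of 0.74 and 0.84 did not pass. Hlf, the third activator gene of that family, was at most at 0.309 FPKM. Of the 2 kept genes of this list 1, Nfil3, passed at each time, against 6.13% and 7.13% of all kept genes that were higher. Tef and Dbp did not pass, though Tef lay above PBS at both times, and Hlf was too low to be kept. With so few genes, a difference between repressor and activator genes was not tested.

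Genes of the kinases, ubiquitin ligases and the protease that act on PER and CRY had 1 of 10 kept genes higher at each time and none lower, near the 6.13% and 7.13% of all kept genes that were higher. Their medians were 0.16 and 0.20. That gene was Usp2, a deubiquitinase gene. It was low in PBS at 0.302 and 0.220 FPKM and stood at 4.49 and 4.42 FPKM in the fusion. Without the fusion it reached at most 0.517 FPKM, so it was kept only through the fusion columns. Its pass therefore follows in part from the filter. Gsk3b, a kinase gene, had ratios of 0.41 and 0.94. The casein kinase 2 gene Csnk2a1 was at -0.61 and -0.18, and Prkaa2, the gene of a catalytic subunit of the energy sensor AMPK, at -0.57 and -0.11. None of these last 3 passed, and Csnk1d and Csnk1e, the PER kinase genes, had ratios between -0.34 and 0.34.

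Among 11 cofactor genes of clock complexes 2 were higher at 3 h and 1 at 6 h, against 6.13% and 7.13% of all kept genes. None was lower, the count at 6 h was near that share, and the medians were -0.26 and -0.14. Sirt1, a deacetylase gene, was at 6.96 FPKM in PBS and 37.4 FPKM in the fusion at 3 h, with log2 ratios of 2.27 and 1.54. Crebbp, the acetyltransferase gene, had ratios of 1.24 and 0.86 and passed at 3 h only. Ep300, the gene of a second acetyltransferase, was at 0.60 and 0.83. Timeless and Tipin, which encode a pair of proteins of the replication fork, lay lower at -0.75 and -0.87 at 3 h and -0.78 and -0.76 at 6 h. None of these 3 passed.

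Of 7 genes known as clock outputs 2 were higher at each time, against 6.13% and 7.13% of all kept genes, and none was lower, with medians of 0.84 and 0.62. Cdkn1a, the p21 gene, had ratios of 2.91 and 2.72. Ccrn4l, the gene of nocturnin, a protein known for its daily rhythm, had 1.90 and 0.74, and Klf10 had 0.70 and 1.11. The mitotic kinase gene Wee1, a known E-box target, was at 0.73 and 0.19, and Nampt, of NAD synthesis, at 0.84 and 0.41. The mitochondrial membrane protein gene Tspo was at 0.88 and 0.021. None of these 3 passed.

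Routes by which stimuli are known to reach Per1 were read in 2 lists. In the list of CREB, its coactivators and the SIK kinases, 3 of 10 genes were higher at both times, with medians of 0.12 and 0.21. Of all kept genes 6.13% were higher at 3 h and 7.13% at 6 h. The kinase gene Sik1, whose product restrains CREB coactivators, was at 8.69 FPKM in PBS and 95.2 FPKM in the fusion at 3 h, with ratios of 3.31 and 1.48. Crem, a CREB-family gene, had ratios of 1.73 and 1.77, and Sik3 1.30 and 1.00. The serum response factor gene Srf was lower at 3 h (-1.03), and it also stood at 155 FPKM in PBS at 3 h and at 56.5 FPKM in PBS at 6 h. Of 5 kept genes of the glucocorticoid list 3 were higher at both times, with medians of 1.54 and 2.01. They were Sgk1 (3.50 and 2.58), Klf9 (2.54 and 2.01) and Tsc22d3 (1.54 and 2.93). The receptor gene Nr3c1 was at 0.12 and 0.41, and the receptor target gene Fkbp5 was at -0.72 and -0.44, so the genes of this list did not all lie on the same side. Zbtb16, also of this list, was at 0 in every column and was not kept. Whether either route acted on Per1 was not tested.

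Among 8 kept genes of factors that bind E-boxes of the MYC type, 1 passed at each time, as higher. That count is near the 6.13% and 7.13% of all kept genes that were higher. The gene was Myc, with ratios of 1.39 and 2.07. Its partner gene Max was at 0.28 and 0.46. By the larger of their ratios at both times, the next in this list were Tfe3 at 0.75 and 0.97 and Usf1 at 0.54 and 0.77, and Mycl, listed as Mycl1, had 0.73 and 0.37. None of these 4 passed.

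**Figure D4:**
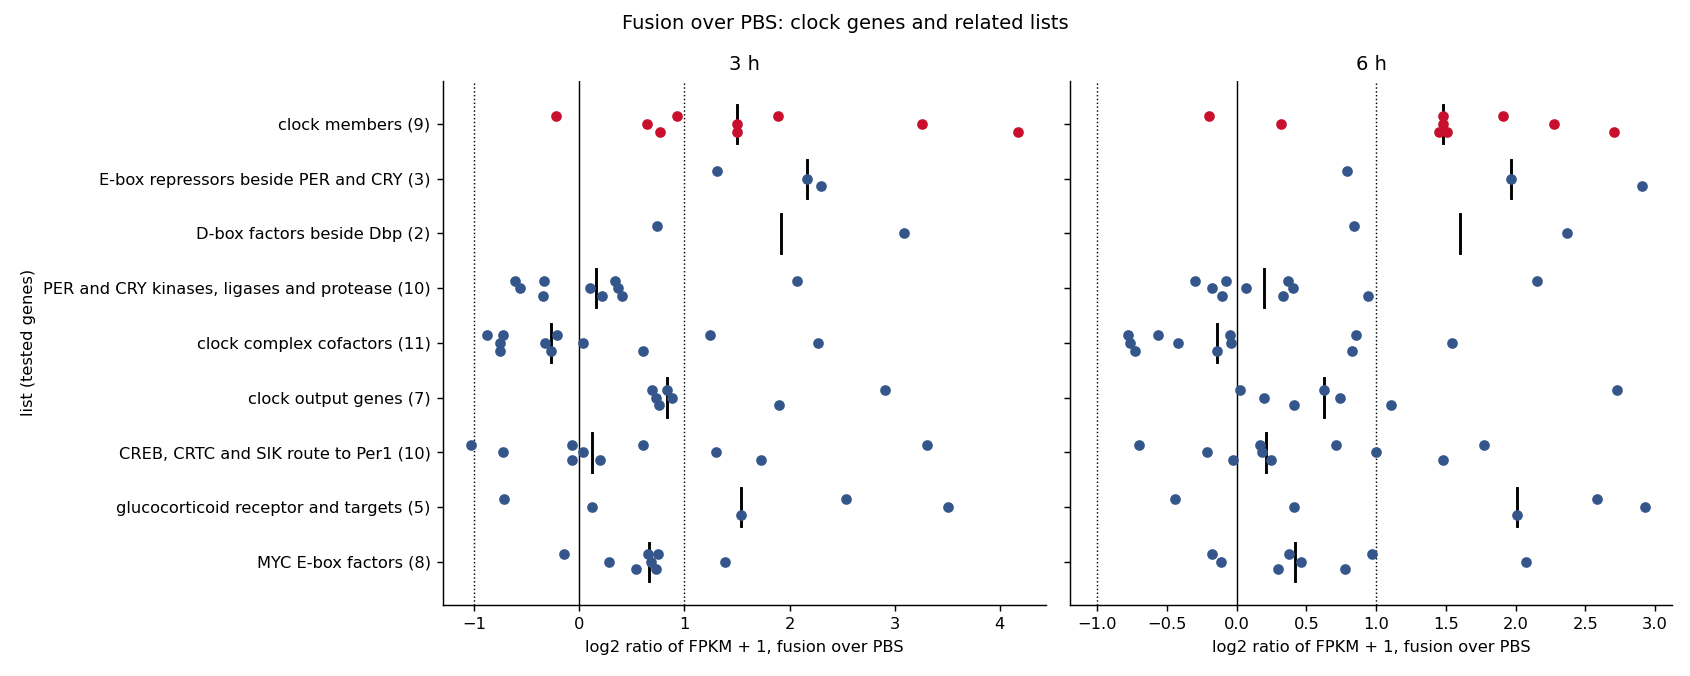
Log2 ratio of FPKM + 1 of the fusion over PBS (horizontal axis) at 3 h (left) and 6 h (right) for each kept gene of the clock set (red) and of 8 related lists (blue; number of kept genes in brackets); black bars are medians and dotted lines mark 2-fold. The clock genes have medians of 1.501 and 1.48, and the kinase and cofactor lists have medians between -0.26 and 0.20.

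Likeness of profile was measured for the 4 members with the largest ratios as the root mean square difference of centred log2(FPKM + 1) over the 8 columns, among 9993 kept genes without small RNA records, predicted genes and pseudogenes. For Per1 the nearest genes were the phosphatase gene Dusp10 (0.17), the protease gene Adamts1 (0.18) and Ccno (0.18). For Nr1d1 they were Fam46c (0.091), the choline kinase gene Chka (0.14) and Sik1 (0.15). Fam46c reached at most 0.292 FPKM without the fusion and was kept only through the fusion columns. With FPKM + 1 such low columns look flat. Each of the 6 genes named for Per1 and Nr1d1 was highest in the fusion at 3 h and next highest in the fusion at 6 h. For Per2 they were the ATP-gated channel gene P2rx7 (0.14), Sipa1l2 (0.15) and the neuropeptide precursor gene Vgf (0.20). For Cry1 they were the potassium channel gene Kcnn4 (0.083), Glce (0.099) and the calcium pump gene Atp2b1 (0.10). These last 6 were highest in the fusion at 6 h, as Per2 and Cry1 were. No clock gene was among the 3 nearest of another.

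**Figure D5:**
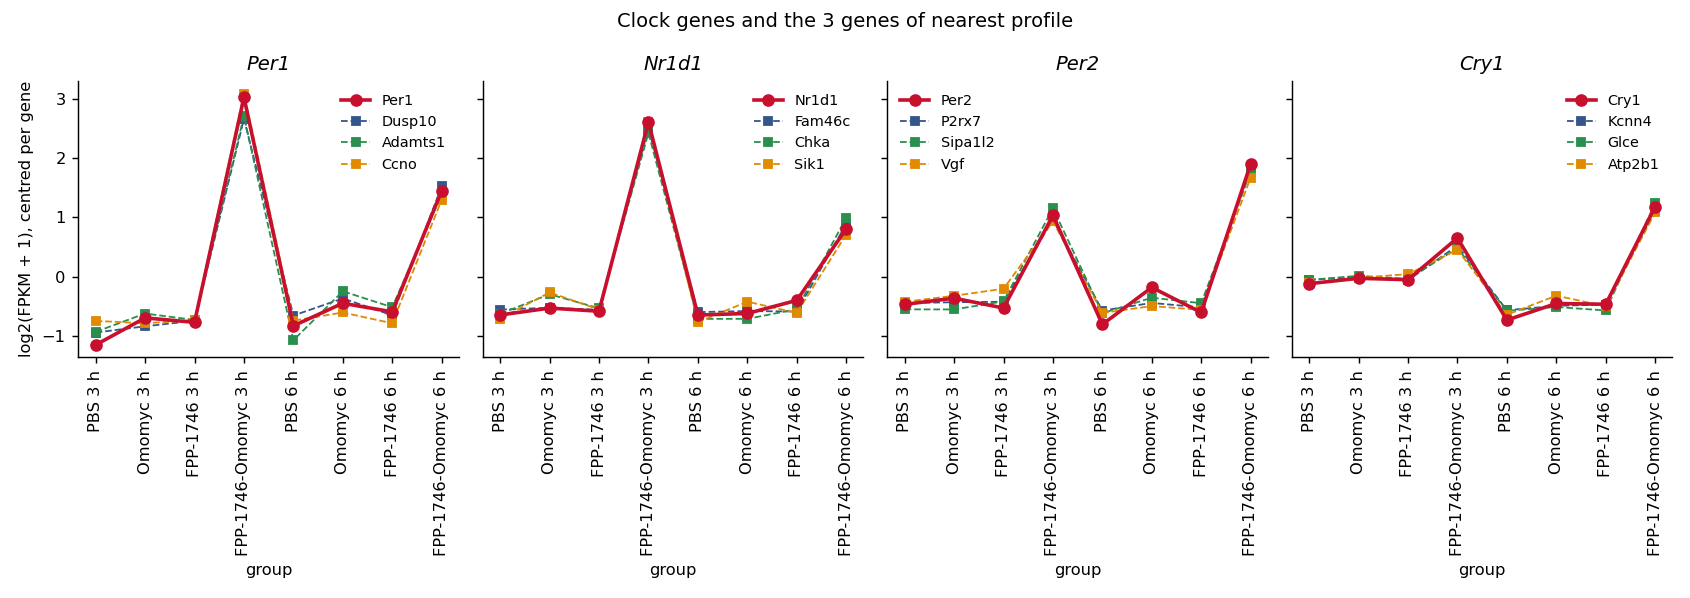
Centred log2(FPKM + 1) (vertical axis) over the 8 groups (horizontal axis) for Per1, Nr1d1, Per2 and Cry1 (red) and the 3 genes of nearest profile for each (dashed); each point is 1 averaged column. Per1 and Nr1d1 peak in the fusion at 3 h, Per2 and Cry1 in the fusion at 6 h.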

How the data were processed

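RNA-seq of 24 samples of T11 cells in 8 groups was deposited as 1 table of FPKM, averaged per group by the authors per the file headers. Per the submitters' processing notes the tools were Cuffnorm 2.2.1, Cufflinks 2.2.1, the aligner STAR 2.1.3 and bcl2fastq 2.17.1.14, with the build mm9. Order, settings, library scaling and strand use are not given in the sources, so overlapping genes cannot be told apart. Log2 ratios of FPKM + 1 were taken over the whole table with Python 3.11.15, numpy 2.4.6 and pandas 2.3.3. Genes whose mean reached 1 FPKM were kept, and a 2-fold rule stood in for a test, since each group is 1 column. The rule was tried on simulated data with planted changes larger than the rule, in genes of higher level and with an assumed noise. It was thus not checked for low genes or for changes near 2-fold. Depth was estimated from the step between low values of 797 genes with 1 annotated transcript of at least 3000 bases. The search range was narrowed after a wider one gave an unstable value for 1 column. Only 22 to 44 of these genes per column fell in that range, so the estimate is rough. All 10 members were named, and from each related clock or stimulus list up to 4 kept genes with the largest ratios and 10 fixed by name. Csnk1d, Csnk1e, Timeless, Nr3c1, Wee1, Nampt, Arntl2 and Rorb were added after their values were seen. The members and lists were chosen with earlier results of these data known. Some genes were left out of the lists and are not reported here. Alternatives changed the pseudocount, filter, fold rule, scaling and reference.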

Additional observations from a re-analysis of the deposited data

Results flagged for a closer look

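In 3 members the fusion column lay above PBS, Omomyc and FPP-1746 at one time and below all 3 at the other, so the direction differed between the times. Of all 10262 kept genes 31.7% showed such opposite sides, and of the 9 kept members 2 did, so the pattern is common in this table. The difference was not tested, since each group is 1 averaged column. Dbp had a log2 ratio over PBS of 0.65 at 3 h and -0.20 at 6 h. For Clock the ratios were -0.22 at 3 h and 0.32 at 6 h. Per3 had 0.15 at 3 h and -0.083 at 6 h, at levels under 1 FPKM. None of these ratios reached 2-fold.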

How the results depend on the processing

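No paired analysis was possible because the table has 1 averaged column per group, and leaving out single replicates was not run for the same reason. Of the log2 ratios of the 9 kept members for the fusion over PBS under 9 alternatives, 152 stayed on their side of the 2-fold rule with their direction, 4 passed newly, 2 no longer passed and none changed sign. The 2 lost were Per2 at 3 h (0.84) and Cry2 at 6 h (0.96), both with a pseudocount of 5. With a 1.5-fold rule 8 members were higher in the fusion at 3 h, where Cry1, Nr1d2 and Dbp joined, against 15.7% of all kept genes. Under that rule 1 was higher with Omomyc at 6 h (0.477% of all kept genes) and 2 were lower in PBS at 6 h than at 3 h (1.86%). In the fusion at 6 h against 3 h 1 was higher and 3 were lower, against 17.8% and 20.2%. The ratio of Per1 ranged from 2.88 to 4.84 at 3 h and from 1.40 to 2.71 at 6 h over the alternatives, and that of Nr1d1 from 2.91 to 3.35 and from 1.21 to 1.52. A filter at 5 FPKM leaves out Per2 and Dbp. Counts of promoter letters in the members were within 1.5 times when the window ended at the start.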
